A study of Mus musculus with 20 samples.

Results

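Wild type macrophages isolated from the colon were set against wild type whole salivary gland, 7 arrays of the 20 in the series. The macrophage group held 3 arrays and the salivary gland group 4, chosen by their titles alone. All 7 mice were female, wild type at Irgm1, on a C57BL/6 background and free of specific pathogens. The macrophage donors were 8, 6 and 6 weeks old and the salivary gland donors 6, 6, 7 and 7 weeks old, in the order of their mouse numbers. The labels do not state how the macrophages were isolated, and whole salivary gland holds acinar, duct, myoepithelial, vascular and immune cells together. Arrays of 3 macrophage and 4 salivary gland samples labelled Irgm1-/- and of 3 wild type small intestines (whole duodenum) served for further levels and for 1 test between genotypes. The macrophage donors labelled Irgm1-/- were 8, 6 and 6 weeks old with 2 of 3 male, the salivary gland donors labelled Irgm1-/- were all 9 weeks old and female, and the small intestine donors were 6, 8 and 6 weeks old and female. The mice differ, but nothing else says how independent the samples are, so p-values measure the spread between these arrays.

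Salivary gland acini make a watery secretion rich in mucins, amylase and small secreted proteins, and in mice the granular ducts of the submandibular gland store kallikreins and growth factors. Macrophages of the colon wall derive from monocytes, depend on the receptor Csf1r, engulf debris, present antigen on MHC class II and secrete complement component C1q. A bulk sample gives the RNA of all its cells, so fewer cells of a type and less RNA per cell cannot be told apart.

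Every level below is the log2 of the processed signal minus the 75th percentile of its array, so 0 is that percentile and each unit is a doubling. A probe entered where the scanner software marked it well above background on all arrays of either group, which left 23014 of 39429 probes and 18429 genes or transcripts. The percentile itself stood at 888, 1604 and 2101 intensity units on the macrophage arrays and at 350, 274, 177 and 134 on the salivary gland arrays. The share of probes marked as well above background was 57.1% to 73.8% on the macrophage arrays and 25.2% to 36.0% on the salivary gland arrays. The detection limit, the lowest level so marked on an array, was -3.23 to -4.25 on the macrophage arrays and -1.78 to -0.26 on the salivary gland arrays. Each tissue was scanned on its own day, so tissue, scan day and array brightness cannot be told apart. Signals correlated across probes by 0.95 to 0.97 (Spearman) among macrophage arrays, by 0.85 to 0.94 among salivary gland arrays and by 0.55 to 0.63 between the tissues. In the authors' deposited table, the 4 salivary gland columns matched the scanner arrays of the same mouse number, while none (0) of the 3 macrophage columns did: each held another array of the same group (the Spearman correlation with the same number was 0.953 to 0.974). The groups are untouched by this, but which macrophage mouse, and which age, belongs to which array is uncertain, and macrophage mice are numbered below by scanner file.

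Short repeats stood in the probes of 36 of the 100 genes with the highest fold changes in macrophages, and examples of such probes are shown because they bear on how later fold changes are read. Each 30-base stretch is from the deposited array annotation, 5′ to 3′, with the runs of the repeat in capitals. For Septin12, Scn8a, Gxylt2, Fam234b and Sox5 another probe of the gene is shown by its first 30 bases.
Has2: gtgggaaacaaACACACCCtgacaataaat
Jmjd6: cttcccaacaaACACACCCagagaactcat
Septin12, first probe: ccaACACACCCtagagcatctatgtgaacc
Septin12, second probe: agttcaatatcatggtagtagggcagagtg
Scn8a, first probe: acatgtatGTGTGTGTGTGTGTGaagaatg
Scn8a, second probe: acagcaagcccaagccaaacagtgacctgg
Gxylt2, first probe: ggatatttGTGTGTGTGTGTGTGaatattt
Gxylt2, second probe: aggagatgctgcttccactctaccagaagt
Fam234b, first probe: GTctctgtatGTGTGTGTGTGcccagtgtt
Fam234b, second probe: aacatcctaacttcttcctagaagtgtgaa
Ehmt1: GTGTGTGTGTGaGTGTGTGTGactcttcta
Pdik1l: atgcacataCACACACACACAatttaaaga
Sox5, first probe: aagaGGAGGAGGAGGAGGAGGAGGAGGaag
Sox5, second probe: ctgggcccatgggcaaattcaatcagatgc

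The genes shown are among the highest in macrophages, and each first probe is the brightest of its gene that entered. A dimmer second probe thus follows in part from that choice, and the pairs are examples, not a test of the repeats. The first Scn8a probe, for a sodium channel of nerve cells, read 6.96, 6.86 and 7.01 in macrophages and 0.14, 0.32, 0.00 and 0.15 in salivary gland. The second read -0.78, -0.64 and -0.60 in macrophages and -2.38, -1.45, -1.97 and -1.41 in salivary gland. The first probe differed by 6.79, and the second was not well above background on any salivary gland array. For Gxylt2, a xylosyltransferase, the first probe read 7.05, 6.77 and 7.09 in macrophages, and the second -1.87, -1.36 and -1.09. For Septin12, a septin of sperm, the first read 6.77, 7.05 and 7.75 in macrophages and the second -1.86, -1.25 and -0.46. For Sox5, a transcription factor, they read 8.04, 8.12 and 7.55, and -1.54, -0.73 and -0.79. In salivary gland both Septin12 probes and the second probes of Gxylt2 and Sox5 were not well above background on any array, so no second fold is given. A further Gxylt2 probe, not shown, read -0.18, 0.40 and 0.28 in macrophages and was likewise below background in salivary gland. The Fam234b probes turned round: the first was higher in macrophages by 6.54, and the second, at -3.27, -2.76 and -2.62 in macrophages and 2.72, 2.70, 2.49 and 2.33 in salivary gland, was lower by 5.45. A further Fam234b probe, not shown, differed by -1.21, with 2 of 4 salivary gland arrays measured. The other Ehmt1 probe, not shown, read 0.14, -0.16 and -0.27 in macrophages, with 1 of 4 salivary gland arrays measured.

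Over all 39429 probes, those holding GTGTGTGT (233 probes, 0.591% of all) had a median signal at percentiles 95.7 to 97.8 of the macrophage arrays and 73.5 to 74.6 of the salivary gland arrays. Probes holding ACACACAC (128 probes, 0.325%) lay at percentiles 95.4 to 99.0 in macrophages and 69.7 to 74.1 in salivary gland. Those holding ACACACC (151 probes, 0.383%) lay at 84.1 to 89.8 in macrophages and 51.5 to 53.5 in salivary gland. GGAGGAGG (125 probes, 0.317%) and TGCTGCTG (114 probes, 0.289%) were also higher in macrophages, at medians of 76.4 to 77.4 and 85.6 to 88.6 against 51.5 to 57.3 and 60.2 to 63.1 in salivary gland. The reverse complement CCTCCTCC (70 probes, 0.178%) ran the other way, at 82.7 to 87.5 in macrophages and 91.5 to 93.4 in salivary gland. Small intestine arrays read GTGTGTGT probes at 70.2 to 78.4, near salivary gland, and macrophage arrays labelled Irgm1-/- at 95.8 to 97.3. The remaining reverse complements were higher in macrophages, GGTGTGT (189 probes, 0.479%) at 73.7 to 77.2 against 64.9 to 67.1 in salivary gland and CAGCAGCA (91 probes, 0.231%) at 73.3 to 79.2 against 49.1 to 56.4. Each motif was sought on the probe strand as written, and all were picked after the probe sequences of the highest genes were seen. Motifs can overlap in a probe. Any of the 8 stood in 2.62% of all probes, in 36 of the 100 genes with the highest fold changes and in 4 of the 100 with the lowest. Their part in the results was not tested. Without these probes 7280 genes were higher and 6676 lower, against 7747 and 6771 with them.

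**Figure D1:**
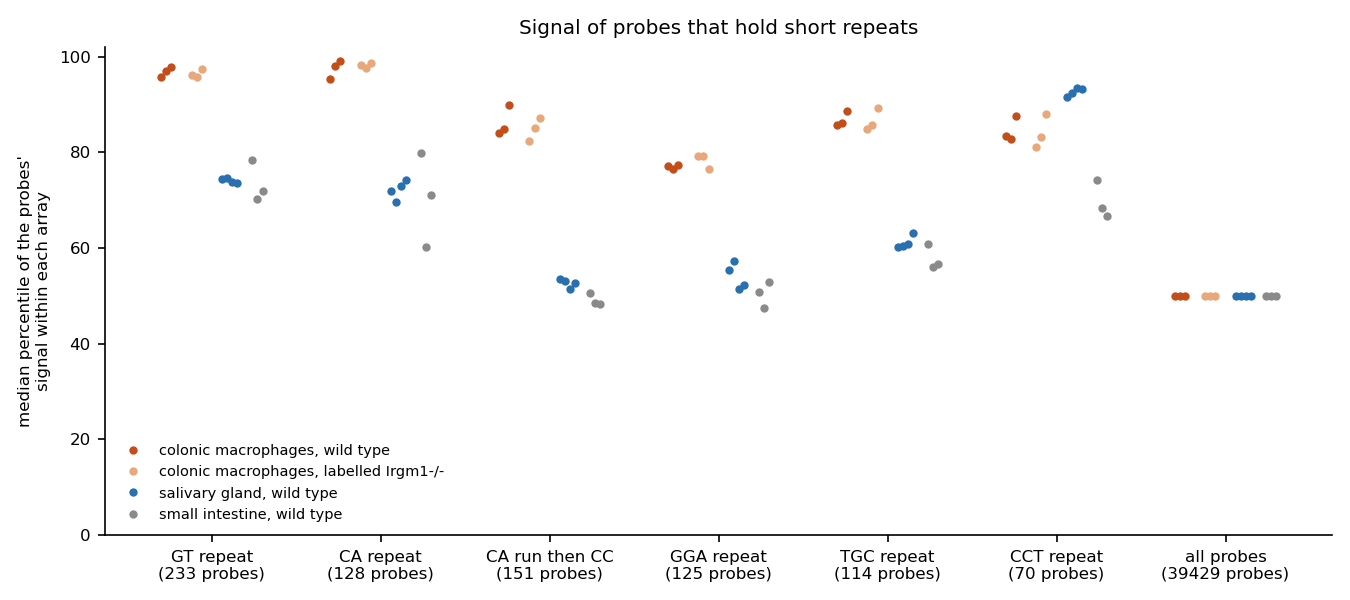
Median percentile of signal within each array (vertical axis, 0 to 100) for probes that hold a short repeat, with each point an array and all probes at 50 by construction. In the 3 wild type macrophage arrays the GT and CA repeat probes sit at 95.4 to 99.0, and in the 4 salivary gland arrays at 69.7 to 74.6.

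The tissues differed over most of the array. By limma at an adjusted p under 0.05, 7747 of 18429 genes were higher in macrophages (42%) and 6771 were lower (36.7%), and 3959 and 3650 of them by at least 4-fold. The median log2 fold change of all genes was 0.28. Detection split these calls. Of 7304 genes, the probe was well above background on every macrophage array and on none of salivary gland, and the reverse held for 186. Among the 7688 genes detected on all 7 arrays, 1060 were higher in macrophages and 5252 lower, and their median was -1.48. When the percentile was taken over the 9018 probes detected on all 7 arrays, the median of all genes moved to 1.47, and 11486 genes were higher and 4094 lower (73.7% of calls higher, against 53.4%). With array medians 5986 were higher and 7499 lower (44.4% of calls higher), with a filter that keeps probes detected on all 7 arrays 1129 and 5460 (17.1%), and with no filter 7486 and 15526 (32.5%). Each direction below is therefore relative to the 75th percentile, and the percentile over detected probes is given where it turns a named gene that passed, the sign of a list's median or which of a list's counts is the larger. List counts in a setting below are to be read beside the counts over all genes in that setting given here.

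**Figure D2:**
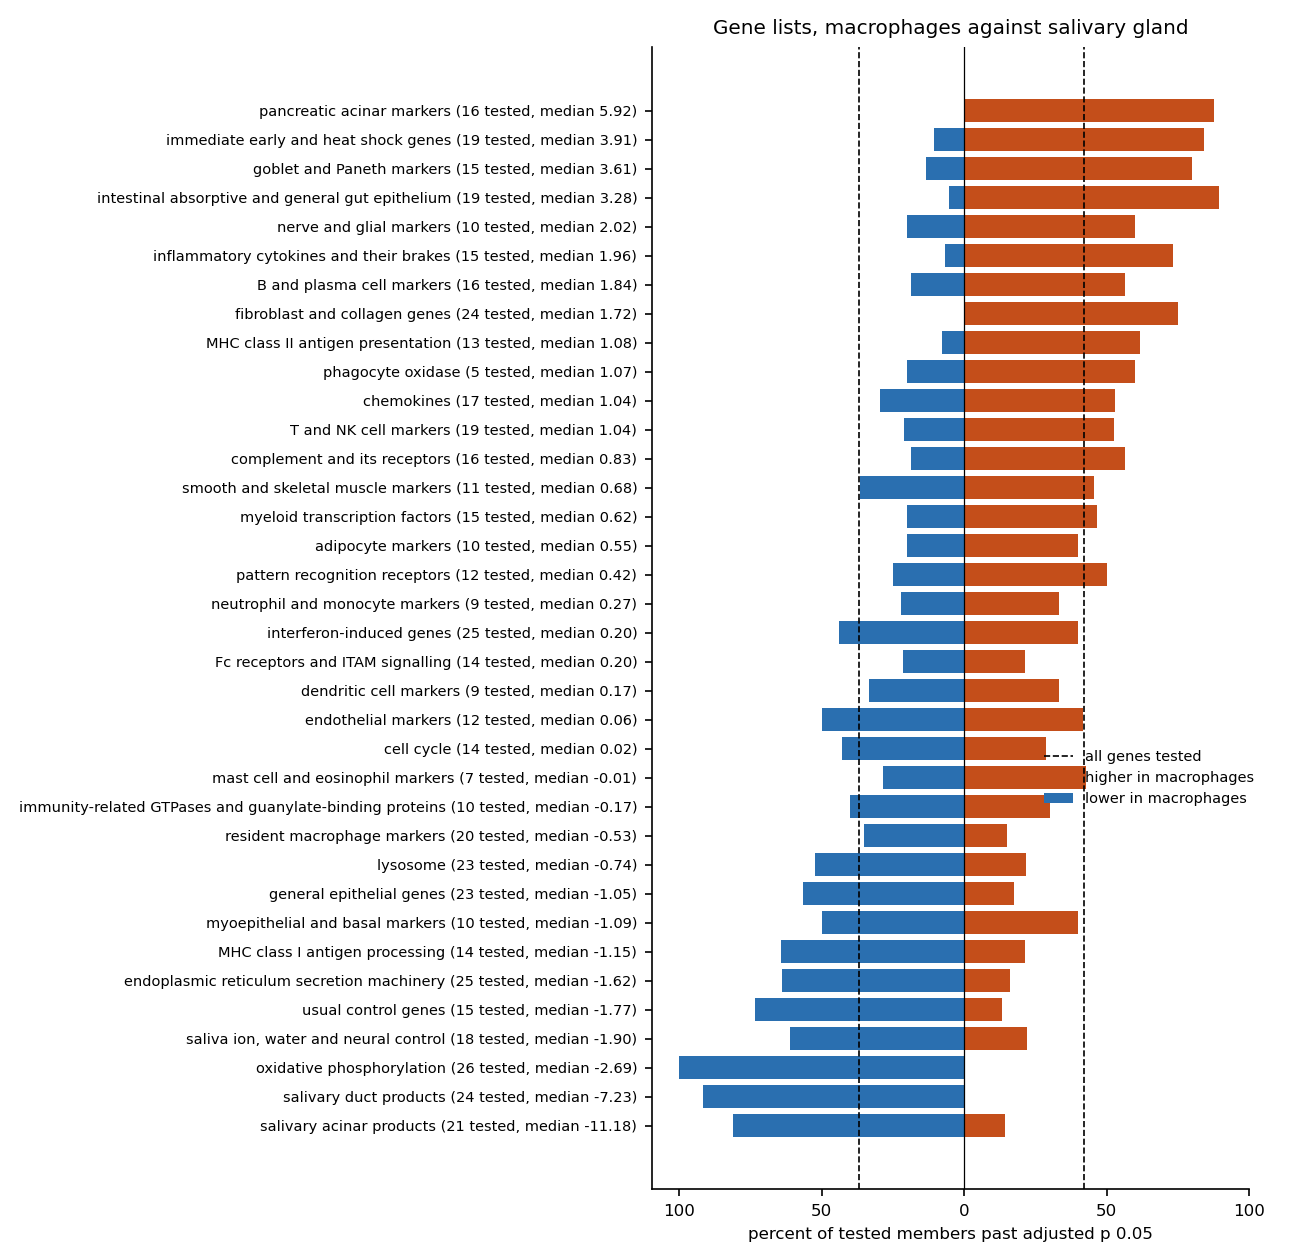
Share of each gene list's tested members (horizontal axis, percent) that were higher (right) or lower (left) in macrophages than in salivary gland at an adjusted p under 0.05, with lists ordered by median log2 fold change. Dashed lines mark the shares over all 18429 genes, 42% higher and 36.7% lower. Pancreatic, goblet, gut epithelial and immediate early lists lie far to the right, and the acinar, duct and oxidative phosphorylation lists far to the left.

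The products of the salivary gland were the lowest genes in macrophages. Of 21 tested acinar products, 17 were lower and 3 higher, with a median of -11.18. Carbonic anhydrase 6 (Car6), a secreted enzyme of saliva, read -5.15, -5.43 and -5.91 in macrophages and 9.99, 10.36, 10.74 and 11.06 in salivary gland. Its probe was not well above background on any macrophage array, and the gene was at least 21000-fold lower there (adjusted p = 3.08e-09, limma, as for every adjusted p below). Bounds of this kind set the bright group's mean against the dim group's mean of, per array, the detection limit or the probe's own level, whichever is higher. By the same measure the mucin-like Mucl1 was at least 21100-fold lower, Prol1, a proline-rich saliva protein, at least 21600-fold, Dcpp3 at least 16900-fold, the androgen-binding protein family member Scgb2b26 at least 16600-fold and Mucl2 at least 15000-fold. The related Scgb1b30, Scgb1b20 and Scgb1b27 were at least 13600-fold, 10700-fold and 6820-fold lower. The Dcpp and Scgb genes are near copies of one another, so which member a probe reads is uncertain. Pip, the prolactin-induced protein, was detected in both tissues, at -2.42, -2.85 and -2.62 in macrophages and 10.08, 10.45, 10.23 and 10.70 in salivary gland, a log2 difference of -13.00 (SE 0.23, n = 3 and 4). Lactoperoxidase (Lpo) fell by 7.60 (SE 0.28). Detected on all 7 arrays as well, Scgb1b3, Scgb2b20, Scgb2b2 and Scgb2b17 differed by -12.92, -12.90, -11.23 and -10.94, the ion pump regulator Fxyd2 by -9.66 and Wfdc18 by -9.63. The groups lay apart for all of these genes. The 3 acinar list members that were higher in macrophages were Dmbt1, Tff2 and Lyz1, which intestine or stomach epithelium also makes. They were at least 25.3-fold, at least 11.9-fold and 1.56 log2 units higher. Smr2, one of the 17 lower members, passed narrowly (-1.18, adjusted p = 0.0413), with groups that overlapped and no salivary gland array well above background, so no fold is given. It stood at 0.02 under the percentile over detected probes, and did not pass without macrophage mouse 1 (-1.03) or 2 (-0.80) or without salivary gland mouse 3 (-1.01) or 4 (-0.98).

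Duct products followed, 22 of 24 lower in macrophages and 0 higher, with a median of -7.23. The kallikrein Klk1b4 read 0.68, 0.09 and 0.33 in macrophages and 9.77, 10.07, 10.22 and 10.35 in salivary gland (log2 difference -9.73, SE 0.24, adjusted p = 7.88e-09). Klk1, the tissue kallikrein, differed by -8.06 and Klk1b8 by -9.03. Kallikrein genes are near copies of one another, so a probe may read several of them. Epidermal growth factor (Egf) differed by -4.84. The duct transcription factors Elf5, at least 214-fold lower, and Ascl3, at -8.06 with 1 of 3 macrophage arrays measured, are regulators of cell identity. The transcriptional coregulator Cited4 differed by -8.55. The secreted protein Crisp3 was at least 915-fold lower. The 2 members that did not pass were Foxi1 (0.35) and Slc5a8 (-0.23).

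Most tested genes of the machinery of secretion were lower too. Of 25 tested genes of the endoplasmic reticulum, 16 were lower in macrophages and 4 higher (median -1.62). Of the 21 with a probe detected on all 7 arrays, 16 were lower and 2 higher (median -1.92). Over all 7774 such genes 5460 were lower and 1129 higher (median -1.48), so the share of the list that was lower was near that of all such genes. Bhlha15 (Mist1), a transcription factor of secretory cells measured on 1 of 3 macrophage arrays, fell by 8.83 (SE 0.33). The differences were -7.30 for Derl3, which takes misfolded protein out of the reticulum, -5.76 for the translocon-associated Ssr4, -4.49 for Creb3l1, -4.42 for the signal peptidase subunit Sec11c and -3.34 for Xbp1, a regulator of the secretory load. The chaperone Hspa5 read 4.86, 4.77 and 4.51 in macrophages and 5.23, 5.34, 5.10 and 4.86 in salivary gland, and did not pass (adjusted p = 0.0979). Among genes for salt, water and neural control of saliva, 11 of 18 were lower and 4 higher (median -1.90). The water channel Aqp5 read -0.81, 0.03 and 0.34 in macrophages and 4.77, 5.00, 4.59 and 4.72 in salivary gland (log2 difference -4.92, SE 0.29). The potassium channel Kcnn4 differed by -5.00 and the sodium, potassium and chloride importer Slc12a2 by -3.59. Myoepithelial and basal genes were mixed, 5 lower and 4 higher of 10 (median -1.09, and 0.11 with 5 of each under the percentile over detected probes), with differences of -5.73 and -5.39 for the keratins Krt5 and Krt14 and of -4.82 for Acta2, smooth muscle actin.

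The 4 salivary gland mice were not alike in these products. Amylase 1 (Amy1) read 4.04, 3.93 and 3.64 in macrophages and 9.56, 9.67, -1.02 and -2.26 in salivary gland. Mice 1 and 2 were thus far above mice 3 and 4, and the macrophage arrays lay between, so the difference of -0.12 did not pass (SE 2.83, adjusted p = 0.971, 2 of 4 salivary gland arrays measured). The proline-rich Prb1 read -1.95, -1.40 and -1.50 in macrophages and 8.65, 8.31, 1.48 and 1.70 in salivary gland, and Prpmp5 read 1.25, 1.48 and 2.62 in macrophages and 9.39, 9.45, 4.03 and 4.64 in salivary gland. Prp2, of the same family, read 1.65, 1.71 and 3.26 in macrophages and 7.20, 7.04, 2.65 and 2.83 in salivary gland. Its difference of -2.72 did not pass, and it passed without salivary gland mouse 3 (-3.49) or mouse 4 (-3.42). Amy2a5, an amylase that pancreas makes, read 6.48, 5.53 and 4.57 in macrophages and 8.04, 7.76, -2.37 and -2.05 in salivary gland, again with mice 1 and 2 high. Amylase genes and proline-rich protein genes are near copies, so each probe may read several. Smr3a, detected on part of the arrays and not tested, had 8.49, 8.81, -2.23 and -1.85 in salivary gland. Cst10, not tested for the same reason, had 9.38, 9.33, -1.78 and 1.71 there. Mice 3 and 4 were 7 weeks old and on the second slide, mice 1 and 2 were 6 weeks old and on the first, and the arrays of mice 3 and 4 were the dimmer ones. Age, slide and brightness cannot be told apart here. Without macrophage mouse 1 and salivary gland mice 3 and 4, Amy1 differed by -5.83 and Amy2a5 by -2.85. The 2 glands left out are those that read low, so these values are a description with no test. The salivary gland arrays labelled Irgm1-/- split in the same way for Amy1, at 0.10, -0.72, 8.43 and 7.46, but with mice 3 and 4 the high ones.

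A different order held for Bpifa2, the parotid secretory protein, at -2.97, -2.90 and -1.64 in macrophages and 10.29, 10.56, 5.41 and 8.46 in salivary gland. Mouse 3 was lowest. It was also lowest for Smgc, a mucin of the neonatal and sublingual gland (6.45, 6.31, 2.92 and 7.13), for A2ml1, a protease inhibitor (9.45, 9.63, 6.29 and 10.36), for Slc5a10, a sugar transporter (8.24, 8.99, 4.64 and 9.77), and for Tm9sf1 (8.03, 8.56, 5.36 and 9.58). The antitrypsin genes Serpina1c (6.31, 7.32, 2.66 and 8.36) and Serpina1e (4.73, 5.83, 1.46 and 7.21), near copies of each other, had the same low mouse. The log2 differences were -11.18 (SE 1.08) for Bpifa2, -7.80 (SE 0.84) for Smgc, -11.31 (SE 0.80) for A2ml1, -10.27 (SE 1.02) for Slc5a10 and -8.89 (SE 0.82) for Tm9sf1, and all passed. Car6, Mucl1, Pip and Scgb2b26 spread over 1.07 log2 units or less in the same 4 mice.

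**Figure D3:**
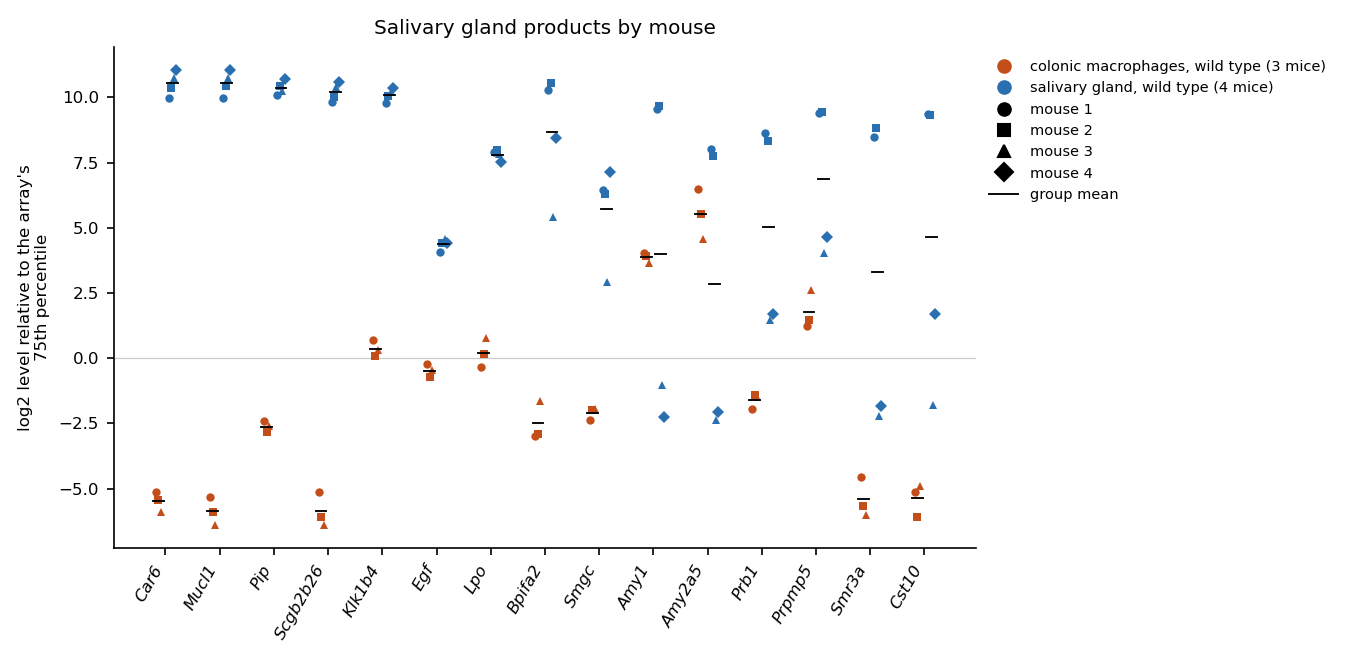
Levels of 15 salivary gland genes (vertical axis, log2 relative to the 75th percentile of the array) in 3 wild type macrophage and 4 wild type salivary gland arrays, with a symbol for each mouse and a line at each group mean. Car6 to Lpo are close in the 4 glands, Bpifa2 and Smgc are low in mouse 3, and Amy1 to Cst10 are high in mice 1 and 2 alone. Levels near or under the detection limits (-1.78 to -0.26 in salivary gland, -4.25 to -3.23 in macrophages) have no reliable order.

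The macrophage label was checked against 24 resident macrophage markers. Between 19 and 23 of them were well above background on the macrophage arrays and between 13 and 19 on the salivary gland arrays, and their summed linear level, in units of the 75th percentile, was 231 to 305 in macrophages, 143 to 235 in salivary gland and 110 to 128 in small intestine. Of 20 tested, 3 were higher in macrophages, 7 were lower and 10 did not pass (median -0.53, and 0.66 with 9 higher and 4 lower under the percentile over detected probes, which moves all genes up by a similar amount). Most of the summed level in macrophages came from a single Itgam probe, which held a repeat and read 8.11, 7.56 and 7.51 there. It read 5.59, 5.61, 6.46 and 6.41 in salivary gland, so the higher sum in macrophages rests on that probe. The measures thus differ in direction, the summed levels overlap between the tissues, and the name macrophages below is the label of the samples. Timd4, of long-lived tissue macrophages, was not well above background on any of the 7 arrays, and Mrc1, Trem2 and Lyve1 were so on 2 of 3 macrophage arrays.

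The 3 higher markers were Fcgr1, Mertk and Itgam. The high-affinity IgG receptor Fcgr1 read -0.15, 0.26 and 0.07 in macrophages and -3.62, -3.39, -2.71 and -2.58 in salivary gland, and was at least 2.13-fold higher. Mertk, which takes up dying cells, was at least 2.50-fold higher, and the integrin Itgam was higher by 1.71 (SE 0.30). Its other probes differed by 0.75 and 0.08, and without the repeat probes its value was 0.08 and did not pass (adjusted p = 0.855). Adgre1, which encodes F4/80, went the other way, at -1.71, -1.02 and -1.21 in macrophages and 1.80, 2.13, 2.41 and 2.68 in salivary gland (log2 difference -3.57, SE 0.28, adjusted p = 1.98e-06), and the groups lay apart. The C1q chain gene C1qa differed by -2.50 (SE 0.47) and read -0.37, 1.93 and 1.39 in macrophages. C1qc, measured on 2 of 3 macrophage arrays, differed by -3.77 (SE 0.63) and read -3.55, -0.28 and -1.33. Mouse 1 was the lowest for both. Csf1r depended on the probe. Its brightest probe differed by -1.96 (0.75, 2.81 and 2.54 in macrophages and 3.93, 4.05, 4.08 and 3.89 in salivary gland), and the other probes were higher by 5.05 and 2.60. The lysosomal marker Cd68 differed by -4.54 and 0.17 between its probes. Tyrobp (0.76), Cd14 (-0.26), Lyz2 (-0.20) and Aif1 (1.02) did not pass. Without macrophage mouse 1 Tyrobp and Aif1 were higher by 1.27 and 1.79 (adjusted p = 0.00264 and 0.00148). Mouse 1 was also the lowest macrophage array for Csf1r, Adgre1, the fractalkine receptor Cx3cr1, C1qb and Tyrobp, and its array was the dimmest of the 3.

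Of 15 regulators of the myeloid lineage, 7 were higher and 3 lower (median 0.62), beside 42% higher and 36.7% lower over all genes. Only 2 had a probe detected on all 7 arrays, with 1 higher and 1 lower. Spi1 (PU.1), the master factor of myeloid cells, read -0.20, 1.73 and 0.78 in macrophages, was not well above background on any salivary gland array and was at least 3.49-fold higher. Irf8, needed for macrophage and dendritic cell fates, read 1.92, 2.15 and 1.85 in macrophages and -0.82, -0.95, -0.70 and -1.14 in salivary gland (log2 difference 2.88, SE 0.21, 2 of 4 salivary gland arrays measured). Klf4 and Nr1h3 (the sterol sensor LXR alpha) were at least 7.16-fold and 5.47-fold higher. Cybb, the catalytic subunit of the phagocyte oxidase, was higher by 1.51 (SE 0.38), with a probe not well above background on every array. The oxidase list had 3 of 5 higher and 1 lower (median 1.07). Of the 2 oxidase genes with a probe detected on all 7 arrays, 0 were higher and 1 lower. Id2, an inhibitor of helix-loop-helix factors, measured on 2 of 3 macrophage arrays, fell by 5.37. Fc receptor and ITAM genes had 3 higher and 3 lower of 14 (median 0.20), dendritic cell markers 3 and 3 of 9 (0.17), neutrophil and monocyte markers 3 and 2 of 9 (0.27), and mast cell and eosinophil markers 3 and 2 of 7 (-0.01). Under the percentile over detected probes these 4 lists had 8 and 2, 6 and 2, 7 and 2, and 4 and 0 (medians 1.39, 1.36, 1.46 and 1.19). Over all 18429 genes that percentile gave 11486 higher and 4094 lower (median 1.47).

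Intestinal epithelial genes were high in the samples labelled macrophages. Of 19 tested absorptive and general gut epithelial genes, 17 were higher and 1 was lower (median 3.28, or 1.85 with bounds in place of measured folds). Of 15 goblet and Paneth genes 12 were higher and 2 lower (median 3.61, or 2 with bounds). Most entered through the macrophage arrays, and few had a probe detected on all 7 arrays. Of 3 such gut epithelial genes 1 was higher and 1 lower (median -0.08), and of 4 goblet and Paneth genes 1 and 2 (median -0.6). With levels floored at the highest detection limit, 9 of 19 and 8 of 15 were higher, and 1 and 2 lower. Galectin 4 (Lgals4), a lectin of the gut lining, read 6.71, 5.68 and 5.52 in macrophages, 1.71, 1.19, 0.85 and 0.74 in salivary gland, and 7.42, 7.07 and 7.30 in small intestine. Its log2 difference was 4.85 (SE 0.35), with 6.08 and 6.01 for its other probes. The colon enzyme carbonic anhydrase 1 (Car1) read 5.61, 3.73 and 4.04 in macrophages, was not well above background in salivary gland or small intestine, and was at least 45.1-fold higher than in salivary gland. The gel-forming mucin Muc2 read 4.30, 4.78 and 4.75, and was at least 50-fold higher, the trefoil peptide Tff3 at least 43.2-fold, the goblet lectin Zg16 at least 60.2-fold, the keratin Krt20 at least 22.6-fold, the fatty acid carrier Fabp2 at least 16.6-fold and the brush border protein Vil1 at least 4.30-fold. Fabp1, a further fatty acid carrier, was not well above background in either tissue. Between 18 and 19 of the 20 gut epithelial markers were well above background in macrophages and 3 to 4 in salivary gland. Their summed level was 137 to 319 in macrophages, 81.0 to 129 in salivary gland and 805 to 1090 in small intestine, with macrophage mouse 1 at the top of its group. General epithelial genes, which both epithelia share, had 4 higher and 13 lower of 23 (median -1.05), which turned to 10 higher and 8 lower (median 0.14) under the percentile over detected probes. The keratin Krt19 was higher by 5.31 and the claudin Cldn4 by 4.90, with 2 and 3 of 4 salivary gland arrays measured, while the claudin Cldn10 fell by 6.96. How much RNA each cell type gave to these samples was not tested.

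Genes of digestive enzymes made by pancreatic acini formed the list with the highest median of the 36, 5.92 (4.91 with bounds), with 14 of 16 higher and 0 lower. Trypsinogen Prss2 read 7.17, 5.57 and 4.99 in macrophages and -3.68, -3.55, -2.85 and -2.57 in salivary gland, where it was not well above background, and was at least 123-fold higher (adjusted p = 2.63e-07). The elastase Cela2a read 6.78, 5.39 and 4.66, and was at least 99.9-fold higher, carboxypeptidase A1 (Cpa1) at least 97.9-fold, the elastases Cela1 and Cela3b at least 83.8-fold and 63.9-fold, pancreatic lipase (Pnlip) at least 40.1-fold and carboxypeptidase B1 (Cpb1) at least 25.6-fold. The carboxyl ester lipase Cel was higher by 5.15 (SE 0.46) and chymotrypsinogen Ctrb1 by 2.64 (SE 0.49). Macrophage mouse 1 was the highest for all 9 of these genes. The other trypsinogen, Prss1, was at least 127-fold higher, and as a near copy of Prss2 it may be read by the same RNA. All 16 of the list's genes were well above background on every macrophage array, 4 to 6 in salivary gland and 8 to 9 in small intestine. Their summed level was 262 to 1220 in macrophages, 27.4 to 281 in salivary gland and 35.5 to 49.4 in small intestine.

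**Figure D4:**
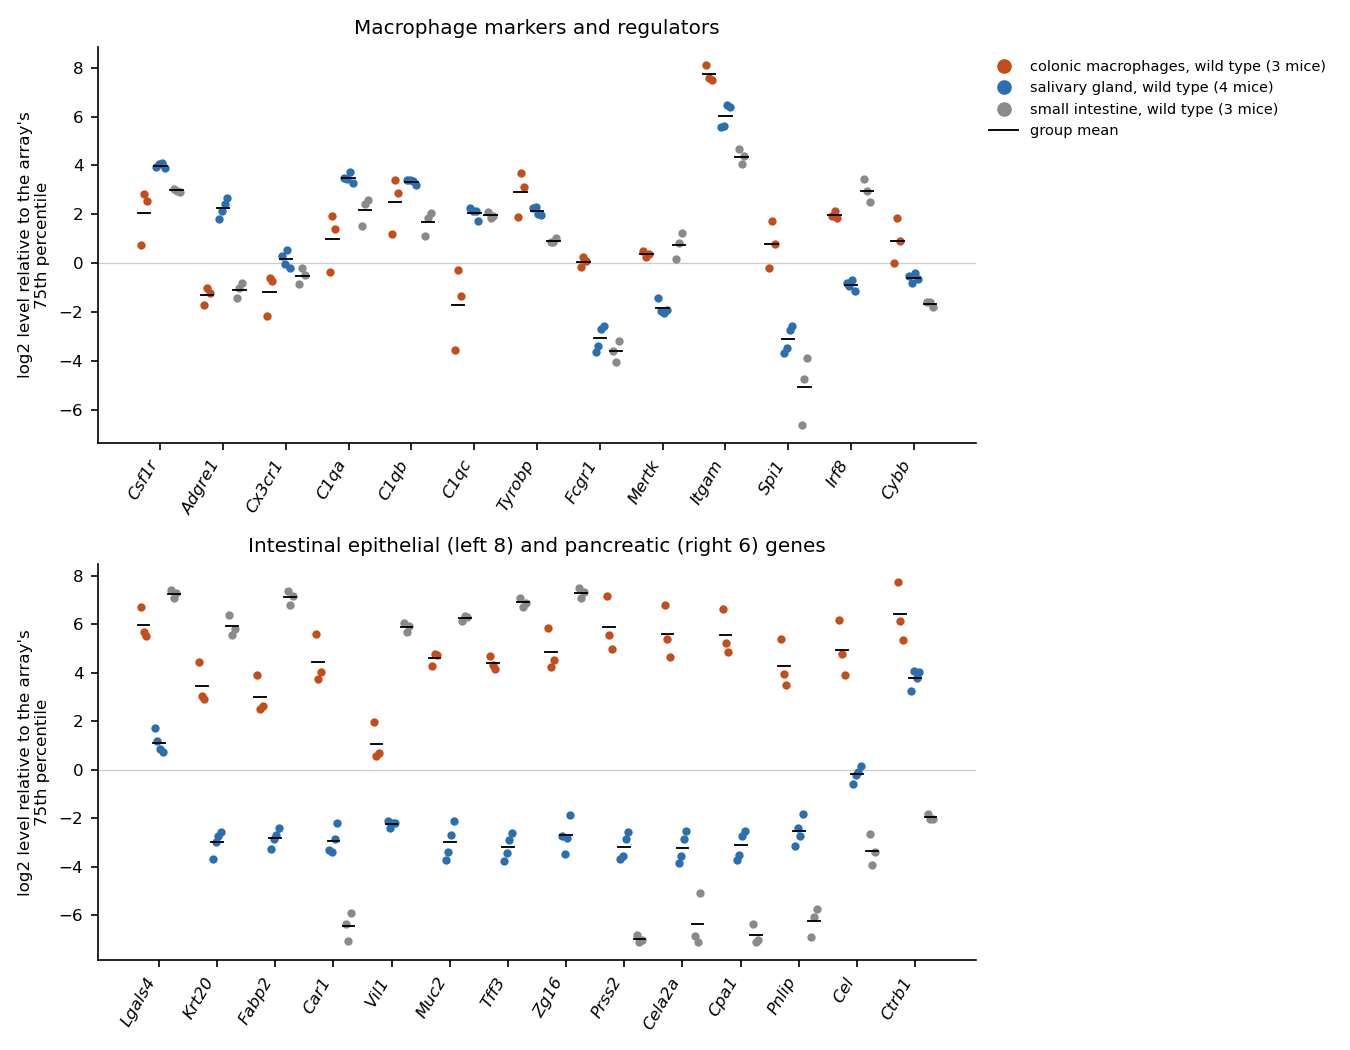
Levels (vertical axis, log2 relative to the 75th percentile of the array) of macrophage genes in the upper panel and of intestinal epithelial and pancreatic genes in the lower panel, in wild type macrophages, salivary gland and small intestine, with a point for each array and a line at each group mean. Adgre1 and C1qa are lower in macrophages than in salivary gland, and Lgals4, Muc2 and Prss2 are higher; Prss2 is below background in both whole tissues.

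The pancreatic genes were tested for a difference between genotypes, since arrays of the same tissues labelled Irgm1-/- exist. Those labels were checked first at Irgm1 itself, which encodes an immunity-related GTPase. It read 0.50, 0.95 and 0.47 in macrophages labelled Irgm1-/- and 3.77, 3.38, 2.68 and 3.18 in salivary gland labelled Irgm1-/-, against -0.69, 0.24 and -0.26 in wild type macrophages and 0.66, 0.70, 0.74 and 0.74 in wild type salivary gland. The labelled arrays were the higher ones, and a probe outside the deleted part would check nothing, and no source used here states that part. In the arrays labelled Irgm1-/-, 7919 of 20062 genes were higher in macrophages (39.5%) and 6999 lower (34.9%). These arrays share slides and scan days with the wild type ones. Their salivary gland donors were all older than the wild type ones, and 2 of 3 macrophage donors were male, so genotype and age cannot be told apart in salivary gland, and the part of sex was not tested. The contrast differed between the genotypes for 483 of 18429 genes (2.62%, limma interaction, adjusted p under 0.05). Among them were 13 of the 16 pancreatic genes, 12 of 25 interferon-induced genes, 11 of 24 fibroblast and collagen genes, 8 of 17 chemokines and 8 of 16 complement genes, and 0 of 19 gut epithelial and 0 of 26 oxidative phosphorylation genes. Probes entered through the wild type arrays alone, so a gene high in wild type macrophages was tested also where the other groups lay below background, and these counts are a description. Among genes well above background on all 14 arrays, 192 of 7545 differed, with 2 of 3 pancreatic, 2 of 11 interferon-induced, 5 of 12 fibroblast and collagen, 2 of 5 chemokine and 5 of 8 complement genes. The 2 pancreatic genes were Cel and Ctrb1. Cel read -2.43, -2.24 and -1.47 in macrophages labelled Irgm1-/-, where its difference from salivary gland was -1.46 (interaction adjusted p = 0.000227). Ctrb1 read -1.04, -0.71 and 0.17 there, with a difference of -3.55 (interaction adjusted p = 0.00136). For the other pancreatic genes named, no salivary gland array of either genotype was well above background, so levels are given without a test. In macrophages labelled Irgm1-/-, Cpa1 read 0.16, 0.38 and 1.63, Cela1 2.62, 2.50 and 1.46, and Cela3b -0.52, 0.13 and -0.31, all lower than on any wild type macrophage array. The pancreatic list's summed level in macrophages labelled Irgm1-/- was 12.2 to 15.7. Pnlip was well above background on 2 of those 3 macrophage arrays, Prss1 and Prss2 on 1, and Cela2a and Cpb1 on 0. The gut epithelial list's median in the labelled arrays was 4.91.

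**Figure D5:**
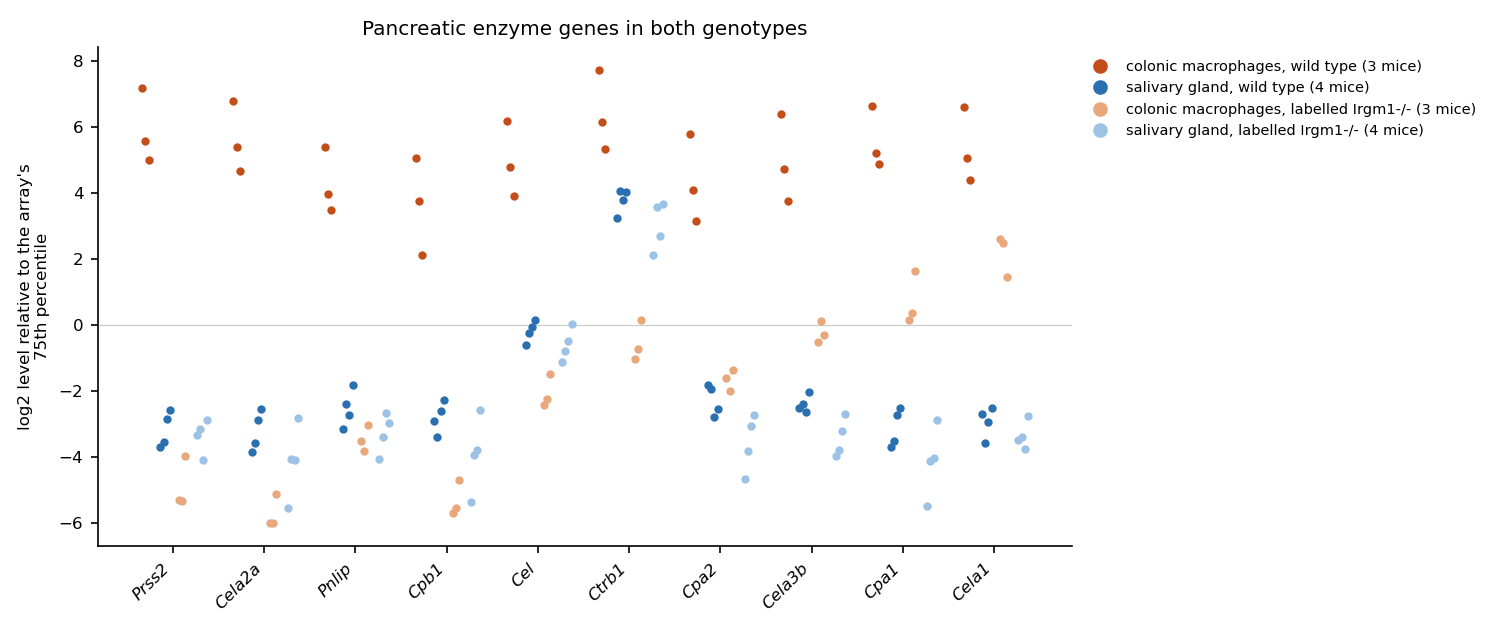
Levels of 10 pancreatic enzyme genes (vertical axis, log2 relative to the 75th percentile of the array) in macrophages and salivary gland of both genotypes, with a point for each array. Wild type macrophages are the highest group for every gene, and the macrophage arrays labelled Irgm1-/- have lower means than their salivary gland arrays for Cel and Ctrb1. Levels under about the detection limits (-4.25 to -3.23 in wild type macrophages, -1.78 to -0.26 in wild type salivary gland) have no reliable order.

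Stromal genes were also higher in macrophages, 18 of 24 with 0 lower (median 1.72). Col6a2, a chain of collagen VI, read 5.49, 5.28 and 5.27 in macrophages and -0.75, -0.89, -0.79 and -0.44 in salivary gland (log2 difference 6.07, SE 0.21, 2 of 4 salivary gland arrays measured). Its other probe differed by 1.99. Fibronectin (Fn1) was higher by 3.78, with 2 of 4 salivary gland arrays measured. Col3a1 was higher by 1.85 and Pi16, of fibroblasts, by 3.23, and fibrillin (Fbn1) was at least 5.89-fold higher. Without the repeat probes Fbn1 had no probe left to test, and 17 of 23 stromal genes were higher and 0 lower (median 1.65). Decorin (Dcn), at 5.44, 5.45 and 5.61 in macrophages and 5.61, 5.60, 5.80 and 5.49 in salivary gland, overlapped between the groups and did not pass (-0.13, adjusted p = 0.559). Endothelial genes split, 5 higher and 6 lower of 12 (median 0.06, and 7 higher and 2 lower under the percentile over detected probes), with the receptor gene Tek at least 6.28-fold higher and the receptor gene Kdr at -3.66. Muscle genes had 5 higher and 4 lower of 11 (0.68), nerve and glial genes 6 and 2 of 10 (2.02, or 0.55 with bounds), and adipocyte genes 4 and 2 of 10 (0.55). With a probe detected on all 7 arrays, muscle genes had 1 higher and 3 lower of 5. Nerve and glial genes then had 1 and 2 of 3, and adipocyte genes 1 and 2 of 3. With the repeat probes left out, nerve and glial genes had 4 higher and 2 lower of 8 (median 1.01).

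Of 16 B and plasma cell markers 9 were higher in macrophages and 3 lower (median 1.84, or 0.53 with bounds), and of 19 T and NK cell markers 10 were higher and 4 lower (median 1.04), beside 42% higher over all genes. Most entered through the macrophage arrays: of those with a probe detected on all 7 arrays, 0 of 6 B and plasma cell markers were higher and 3 lower (median -0.96), and 2 of 5 T and NK cell markers were higher and 3 lower (median -1.14). Over all 7774 genes with such a probe, 1129 were higher and 5460 lower (median -1.48). Cd22, a receptor of B cells, read 4.26, 4.71 and 5.82 in macrophages and -0.21, -0.68, -0.07 and -0.32 in salivary gland (log2 difference 5.25, SE 0.36). Its probe was not well above background on every array. Cd79b, of the B cell receptor, was at least 10-fold higher, and Cd3d and Icos, of T cells, at least 4.75-fold and 5.38-fold. The T cell chain gene Cd8b1 fell by 4.90, with 2 of 3 macrophage arrays measured. Nkg7, of NK cells, fell by 2.38, although its other probe was higher by 2.07. Cd3e, at -0.16, 0.75 and 0.91 in macrophages, fell by 1.14, and stood at 0.05 under the percentile over detected probes. Between 16 and 19 of 19 B and plasma cell markers were well above background on the macrophage arrays and 6 to 8 on the salivary gland arrays. Their summed level was 62.3 to 83.8 in macrophages and 57.7 to 61.1 in salivary gland.

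Immediate early genes, which cells switch on within minutes of stress or handling, were among the highest. Of 19 immediate early and heat shock genes, 16 were higher in macrophages and 2 lower (median 3.91, or 2.84 with bounds). Atf3, a stress-induced transcription factor, read 6.03, 5.28 and 5.53 in macrophages and -2.51, -2.74, -1.37 and -2.51 in salivary gland, and was at least 100-fold higher (adjusted p = 8.62e-08). Fos and Junb were at least 25.4-fold and 36.6-fold higher. Jun was higher by 4.77 (SE 0.23), Fosb by 4.57, Egr1 by 5.62, Dusp1 by 4.08 and the heat shock protein gene Hspa1a by 3.77, the last 3 with 1 of 4 salivary gland arrays measured. The exceptions were Jund, at -1.75, and Nr4a1, at 3.85, 3.87 and 3.70 in macrophages and 4.65, 4.63, 4.46 and 4.42 in salivary gland (log2 difference -0.73, SE 0.19, adjusted p = 0.00591), which turned to 0.46 under the percentile over detected probes. Under the percentile over detected probes 18 were higher and 0 lower. All 19 were well above background on each macrophage array, 8 to 13 in salivary gland and 17 to 18 in small intestine, and their summed level was 314 to 404 in macrophages, 107 to 127 in salivary gland and 82.0 to 117 in small intestine.

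Genes of inflammation followed in part. Of 15 tested cytokines and their brakes, 11 were higher and 1 was lower (median 1.96, or 1.17 with bounds). Socs3, which damps cytokine receptors, read 4.49, 4.52 and 4.47 in macrophages and was at least 46.0-fold higher. Il1rn, the interleukin 1 antagonist, was at least 13.7-fold higher with 2 macrophage arrays measured, Tnfaip3, a brake on NF-kB, at least 6.48-fold and Tnf at least 2.21-fold. The subunit Il10rb of the interleukin 10 receptor fell by 2.85, and Il10 itself was not well above background on any of the 7 arrays. Of 17 chemokines 9 were higher and 5 lower (median 1.04), beside 42% higher and 36.7% lower over all genes. Of the 5 with a probe detected on all 7 arrays, 1 was higher and 3 lower (median -1.26). Over all 7774 genes with such a probe, 1129 were higher and 5460 lower (median -1.48). Cxcl1 and Ccl2, which draw neutrophils and monocytes, were at least 8.37-fold and 6.85-fold higher and Ccl6 was higher by 4.46. The Ccl6 probe was not well above background on every array. The epithelial chemokines Ccl28, Cxcl17 and Cxcl14 were lower, Ccl28 by at least 172-fold and the others with differences of -6.83 and -4.13. The Cxcl17 probe was also not well above background on every array. Pattern recognition receptors had 6 higher and 3 lower of 12 (median 0.42). Of the 4 with a probe detected on all 7 arrays, 1 was higher and 1 lower (median -0.33). The inflammasome sensor Nlrp3 and its protease Casp1 were at least 6.32-fold and 6.99-fold higher. The sensor of single-stranded RNA Tlr7 fell by 7.51 and its adaptor Myd88 differed by -4.18, both with 2 of 3 macrophage arrays measured. Complement genes had 9 higher and 3 lower of 16 (median 0.83). Of the 9 with a probe detected on all 7 arrays, 3 were higher and 3 lower (median -0.67).

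Genes of antigen presentation were counted by class, with no test between the classes. Of 13 MHC class II genes, 8 were higher in macrophages and 1 lower (median 1.08). Of the 7 with a probe detected on all 7 arrays, 3 were higher and 1 lower (median -0.13). Ciita, the master activator of the class, read 3.35, 3.14 and 3.34 in macrophages and was at least 19.8-fold higher. The peptide editors H2-DMb2 and H2-Ob were at least 7.11-fold and 7.37-fold higher, and H2-Aa was higher by 1.64 (SE 0.27). The chain genes H2-Ab1 (-0.25, adjusted p = 0.605) and H2-Eb1 (-0.45, adjusted p = 0.234, though -0.79 and 0.0458 without macrophage mouse 2) and the invariant chain Cd74 (-0.13, adjusted p = 0.618) did not pass. Of 14 class I genes 3 were higher and 9 lower (median -1.15, and 0.04 with 5 higher and 4 lower under the percentile over detected probes). Of the 13 with a probe detected on all 7 arrays, 3 were higher and 8 lower (median -0.99). Over all 7774 such genes 1129 were higher and 5460 lower (median -1.48). Lysosome genes had 5 higher and 12 lower of 23 (median -0.74, and 0.45 with 12 higher and 6 lower under the percentile over detected probes). The cathepsin Ctsh fell by 5.45, and the lipase Lipa and the cholesterol exporter Npc1 were at least 3.94-fold and 4.18-fold higher.

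Interferon-induced genes and the GTPase family that holds Irgm1 were divided. Of 25 interferon-induced genes, 10 were higher in macrophages and 11 lower (median 0.20), beside 42% higher and 36.7% lower over all genes. Under the percentile over detected probes 16 were higher and 5 lower (median 1.39), beside 11486 higher and 4094 lower of all 18429 genes (median 1.47). Of the 11 with a probe detected on all 7 arrays, 0 were higher and 10 lower (median -1.86). Over all 7774 genes with such a probe, 1129 were higher and 5460 lower (median -1.48). Isg15, a ubiquitin-like modifier, read -0.98, 0.20 and -0.39 in macrophages and 2.53, 2.74, 2.81 and 2.87 in salivary gland (log2 difference -3.13, SE 0.28), and its contrast in the arrays labelled Irgm1-/- was -5.45 (interaction adjusted p = 0.0154). Bst2, which tethers viruses, differed by -2.38 and the transcription factor Stat2 by -3.10. Of 10 GTPases 3 were higher and 4 lower (median -0.17). Iigp1, an effector that coats vacuoles, was at least 6.63-fold higher, Gbp9 at least 2.99-fold and Gbp5 higher by 4.07. The Gbp5 probe was not well above background on every array. The differences were -1.82, -2.01 and -0.95 for the regulators Irgm2, Igtp and Irgm1 and -1.91 for Gbp2. Under the percentile over detected probes 5 GTPases were higher and 0 lower. Irgm2, Igtp and Gbp2 then stood at -0.63, -0.82 and -0.72 and did not pass, and Irgm1 stood at 0.24.

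Genes of energy metabolism and most of the usual control genes were lower in macrophages. Most of them, with all 26 oxidative phosphorylation genes, had a probe detected on all 7 arrays. Over all 7774 genes with such a probe, 5460 were lower and 1129 higher (median -1.48). Beside this, of 13 control genes with such a probe 10 were lower and 1 higher (median -1.88), near the share of all genes with such a probe. All 26 oxidative phosphorylation genes were lower (median -2.69), and 19 were lower and 0 higher under the percentile over detected probes (median -1.50, where all genes stood at 1.47). Ndufa4 read -0.33, -0.34 and -0.40 in macrophages and 4.89, 4.95, 4.62 and 4.54 in salivary gland (log2 difference -5.11, SE 0.20), and Cyc1, cytochrome c1, differed by -4.01. Of 15 tested control genes 11 were lower and 2 higher (median -1.77), and 8 lower and 4 higher under the percentile over detected probes. The elongation factor Eef2 differed by -3.40 and the purine salvage enzyme Hprt by -3.16, while beta-actin (Actb) was higher by 0.73 and the adaptor Ywhaz by 2.44. The Ywhaz probe was not well above background on every array. Actb did not pass with array medians (0.23) or without macrophage mouse 1 (0.55, adjusted p = 0.0775). With array medians 1 control gene was higher and 11 were lower. The 7 probes of Gapdh differed between the tissues by 2.27, 1.35, 0.49, -0.98, -2.59, -3.16 and -4.17, and a change of scaling shifts all 7 alike. Cell cycle genes had 4 higher and 6 lower of 14 (median 0.02), and 7 higher and 3 lower under the percentile over detected probes.

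Disagreement of this kind was common. Of 3768 genes with several probes that entered, 957 (25.4%) had probes called in opposite directions, and the median gap between a gene's highest and lowest probe was 1.93 log2 units. In the arrays labelled Irgm1-/- the share was 25.4% of 4210 genes. Small intestine against salivary gland gave 9.92% of 3328 genes and a median gap of 0.92. Of the 25 genes with the highest fold changes or bounds in macrophages, 13 had a further probe that entered, and the gap to it had a median of 5.77. Of the 25 lowest, 6 had one, with a median gap of 6.45. Probes were called in opposite directions for 2 of the 13 and 0 of the 6. Such gaps follow in part from taking the brightest probe of a gene. Trim71, a stem cell RNA-binding protein, was at least 426-fold higher by its brighter probe and Muc3, a gut mucin, at least 377-fold. In macrophages their dimmer probes read -0.9, 0.86 and 1.27 for Trim71 and 3.81, 2.91 and 2.53 for Muc3. Both lay under the detection limit of every salivary gland array, so no second fold is given. The transcription factor Nhlh1 was at least 181-fold higher, Dcaf12l2 at least 139-fold and the thioesterase Acot3 at least 122-fold. Among genes detected on all 7 arrays, the transcript Wbscr25 differed by 7.81, Pxmp4 by 6.50, Nxnl1 by 6.43, Slc35e2 by 6.12, Ralgps1 by 6.00 and Nelfcd by 5.97. Without the repeat probes, Wbscr25, Slc35e2, Ralgps1, Nelfcd and Acot3 had no probe left to test. The lowest value of Pxmp4 over the alternative ways of processing was 2.36.

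The genes that varied most among the 3 macrophage arrays differed in which mouse stood apart. Scgb1b3, of the salivary gland products, read -0.42, -3.82 and -3.43 in macrophages, with mouse 1 the highest. Haptoglobin (Hp), a plasma protein that binds haemoglobin, read -2.35, 2.49 and -1.25 in macrophages and 2.57, 3.03, 2.93 and 2.68 in salivary gland. Trim68 read 0.61, 2.28 and 4.51 in macrophages, the ubiquitin ligase scaffold Cul4a 0.33, 0.23 and 3.74, and the kinase Mast1 -1.14, 2.17 and -1.37. Mouse 2 was high for Hp and Mast1 and mouse 3 for Trim68 and Cul4a, while the salivary gland mice spanned less than 1 unit for each of the 4. Leaving out 1 macrophage array changed each call: without mouse 1 Trim68 passed (2.46) and Hp did not (-2.18), without mouse 2 Mast1 passed (-1.28), and without mouse 3 Cul4a passed (-2.40).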

How the data were processed

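The authors scanned the arrays and extracted spot intensities with Agilent Feature Extraction 11.5.1.1, per the file headers, which name genome build mm9 and only the red channel. The deposited processed signal is background-subtracted intensity, not normalized between arrays. The authors' deposited series table holds linear intensities with 1 median per tissue (381.2 on macrophage and 47.6 on salivary gland columns), by a normalization its header does not name, and served as an alternative. Here outlier spots were left out (0.43%), spots of a probe averaged, and log2 intensity set against each array's 75th percentile. A gene was represented by its brightest entering probe (mean of both group means). Of 39429 probes, 27508 were named by accession and 404 by synonym through the RefSeq table, and 11517 kept the file's name. limma 3.58.1 in R 4.3.3 compared the 3 macrophage with the 4 salivary gland arrays, with Benjamini-Hochberg adjustment over all genes at 0.05. Exact permutation of 3 against 4 arrays cannot go below p = 0.0286. The 36 gene lists (694 genes, 7 entries without a probe) and the genes named were chosen with earlier results of these data known. Genes were named by size of change or bound, largest change in each list and largest spread within a group, without clones and receptor segments. The fit was run on simulated arrays with independent noise and few changed genes. The simulation held no difference in brightness, scaling or detection limit, so it checks nothing about those. A few withheld genes are not reported here.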

Additional observations from a re-analysis of the deposited data

Results flagged for a closer look

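For 26 of the 188 genes named and tested, the difference between the tissues in wild type mice departed from that in arrays labelled Irgm1-/- (limma interaction, adjusted p under 0.05). The values that follow are the wild type difference minus the labelled one, in log2 units. Of the 26, 9 were well above background on all 14 arrays (Acta2, Bst2, C1qa, Cel, Ctrb1, Irgm1, Isg15, Pi16 and Slc12a2). For 14 a whole group had no array above it, so their size is set in part by background and is not a measure of the change: all the digestive enzymes but Cel and Ctrb1, and Casp1, Ccl2, Ccl28, Fbn1, Fcgr1 and Socs3. Among digestive enzymes it was 10.58 for Prss2, 10.39 for Cela2a, 8.74 for Prss1, 7.83 for Cpb1, 6.99 for Pnlip, 6.61 for Cel, 6.19 for Ctrb1, 4.18 for Cela3b, 3.84 for Cpa1 and 2.74 for Cela1. Among interferon-related and immune genes it was 3.56 for Gbp2, 3.13 for C1qa, 2.89 for Socs3, 2.84 for Ccl2, 2.66 for Bst2, 2.42 for Irgm2, 2.33 for Isg15, 2.3 for Casp1, 1.88 for Fcgr1 and 1.66 for Irgm1. Stromal and muscle genes gave 2.96 for Acta2, 2.58 for Fbn1, 2.1 for Fn1 and 2.0 for Pi16. Only Ccl28 (-2.95) and Slc12a2 (-2.1) of the 26 were negative.

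In 9 of 196 named genes a single salivary gland array lay far from the other 3, judged by the gap to its neighbour over the range of the 4. Chance gives such a gap in about 1 of 20 groups. Mouse 4 was the lowest for Slc12a2 (1.0 of the range), Actb (0.95), Aif1 (0.92), Cd14 (0.87) and Jun (0.83), and mouse 3 the highest for Id2 (0.88), Gbp2 (0.85) and Atf3 (0.83). Mouse 1 was the lowest for Gxylt2 (0.86). The whole range was 0.21 to 1.37 log2 units in these genes.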

How the results depend on the processing

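Beside 14518 calls, a separate fit gave 9077 (3508 higher) with levels floored at the highest detection limit, 6589 (1129 higher) with probes detected on all 7 arrays, where 7774 genes were tested, and 23012 (15526 lower) with no filter, where 30135 were. The percentile over detected probes gave 4094 lower, and 4488 lower in the arrays labelled Irgm1-/-. Leaving out 1 array gave 13574 to 14885 calls, 7133 to 8042 higher and 6441 to 7255 lower. The fit with a replicate block on the mouse number gave 14855 calls, but same-numbered arrays did not deviate together (correlations 0.09, 0.07 and 0.11) and the macrophage numbers are uncertain, so the numbers share only a name. List medians relative to all genes turned to 0.65 for resident macrophage markers, 0.49 for lysosome and 0.48 for MHC class I genes with probes detected on all 7 arrays, and with no filter to 0.24, 0.06 and, for nerve and glial markers, -0.18. Named genes turned under the percentile over detected probes (Cd3e 0.05, Irgm1 0.24, Nr4a1 0.46, Smr2 0.02), quantile scaling (Nr4a1 0.2), the mean of all probes (Csf1r 1.9, Fam234b -0.04) and without repeat probes (Fam234b -5.45). The cause was not tested. The repeats, and leaving out macrophage mouse 1 with salivary gland mice 3 and 4 (16248 calls), were alternatives chosen after seeing the data. No other setting turned a named gene that had passed the test. Signal over background limits the salivary gland side most.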
